A study of Mus musculus with 6 samples.

Results

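Aminoacyl-tRNA synthetases join each amino acid to its own transfer RNA, and their transcripts were examined in D10 T cells kept warm or cold for 24 h. The genes were chosen by symbol among the protein-coding genes of the deposited table, taking names made of 1 capital letter, the letters ars and an optional 1 or 2, together with Farsa, Farsb and Eprs1. This gave 37 genes of 22255 protein-coding genes and of 41079 genes listed. Symbols ending in 2 were taken as the mitochondrial enzymes (17 genes) and the others as the cytosolic enzymes (20 genes).

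D10 is a cloned line of mouse CD4+ helper T cells, and the labels give no separate animals. The labels call the replicates independent experimental batches. They also mention extraction batches called old and new, without saying which library belongs to which. Whether all libraries were of the same subline was not tested. Non-acclimated cells stayed at 37°C for 24 h and cold-acclimated cells stayed at 26°C for 24 h, in the same serum-supplemented medium, with 3 libraries in each group. Poly(A)+ RNA was sequenced, and the values are in TPM, a unit that relates a gene's reads to its length and to the total of its library. The reads recovered from the TPM numbered 16899628, 21462543 and 31290854 in the non-acclimated replicates 1 to 3, and 19605883, 20579363 and 25169484 in the cold-acclimated ones.

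The labelled cell type was checked against marker genes. Of 18 T cell markers, 16 had a mean of at least 1 TPM, and their summed level was 6632, 5198 and 6958 TPM at 37°C and 5508, 4075 and 4721 TPM at 26°C. Cd3g, a chain of the T cell receptor complex, was the most abundant of them by the mean over all 6 libraries, between 954.0 and 1847 TPM. Il2ra, the receptor chain for interleukin-2, is part of these sums and was at 1360, 1674 and 2026 TPM at 37°C and 327.2, 217.0 and 312.7 TPM at 26°C, and was above Cd3g in non-acclimated replicates 2 and 3. Cd4, which names the cell type, was at 1.09, 0.0351 and 309.7 TPM at 37°C and at 1.30, 0.352 and 328.0 TPM at 26°C. It was thus near 0 in replicates 1 and 2 and abundant in replicate 3 at both temperatures. Trac, the constant segment of the receptor alpha chain, was at 14.96 and 12.82 TPM in the replicates numbered 2 and between 128.5 and 206.9 TPM in the other libraries. Cd5 and Trbc1 were at or near 0 in all 6 libraries. The differences of Cd4 and Trac between replicates were alike at both temperatures.

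Markers of other cells were also read in every library. The 9 B cell markers summed to 3.527, 2.095 and 3.619 TPM at 37°C and to 1.48, 1.02 and 2.06 TPM at 26°C, with Ighm the most abundant and Ms4a1 at 0 throughout. The 9 macrophage and monocyte markers summed to 2.87, 5.20 and 16.0 TPM at 37°C and to 3.54, 2.90 and 21.5 TPM at 26°C, with Lyz2 the most abundant by the mean over the libraries and Cd14 and Cd163 at 0. The 7 erythroid markers summed to 190.2, 80.8 and 487.4 TPM at 37°C and to 85.5, 61.4 and 474.7 TPM at 26°C, nearly all of it from the globin gene Hba-a1, while Hbb-bs and Hbb-bt were at 0. Cd4, Lyz2 and Hba-a1 were each highest in the replicates numbered 3, and the part of these differences in the results below was not tested.

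Animal cells hold separate sets of synthetases for the cytosol and for the mitochondrion, all of them encoded in the nucleus, and the mitochondrial enzymes charge the transfer RNAs that read the mitochondrial genome. Several cytosolic synthetases are bound with scaffold proteins in the multisynthetase complex, whereas the others act outside it. Glycyl- and lysyl-tRNA synthetase serve both compartments from a single gene, so Gars1 and Kars1 have no mitochondrial counterpart with the suffix 2.

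At 26°C more mitochondrial than cytosolic synthetases passed the test for a lower level on the deposited TPM, and the difference between these groups was not tested. The order turned with quantile normalization, which gives all libraries the same distribution of values. There 1 mitochondrial and 2 cytosolic genes were lower by adjusted p, against 6.80% of all tested genes. It also turned without cold-acclimated replicate 2, with 0 and 1 genes, against 4.91%. All 37 genes reached the mean of 1 TPM needed to enter the test. The main test was limma on log2(TPM + 1), with no term for the replicate. By it, 7 of the 17 mitochondrial genes (among them Rars2, Nars2, Vars2, Tars2, Pars2 and Iars2) and 3 of the 20 cytosolic genes (Iars1, Mars1 and Cars1) fell. A fall means that the adjusted p was under 0.05 and the log2 fold change was -1 or lower. None of the 37 rose by limma on these values, where 2 had an unadjusted p under 0.05 in the upward direction, against 7.753% of all tested genes, and limma voom on the recovered reads called 2 as higher, against 7.72%. Over all 12227 tested genes, 16.0% fell and 2.63% rose by the same thresholds. With the adjusted p alone the synthetase counts were unchanged, and 17.4% of all tested genes were lower and 3.30% higher.

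On the deposited TPM the log2 fold changes of the tested genes had a median of -0.34, and the cause of this was not tested. After median of ratios scaling, which sets each library's typical gene level equal, that median was 0.02. Relative to the median of all genes, the mitochondrial synthetases had a median of -0.75 and the cytosolic ones of -0.21 on the deposited TPM. With the scaling these medians were -0.72 and -0.18, and with quantile normalization they were closer, at -0.52 and -0.42. In replicate pairs 1 to 3 on the deposited TPM they were -0.71, -0.79 and -0.71 for the mitochondrial and -0.39, -0.51 and 0.17 for the cytosolic genes. On the deposited TPM 16 of 17 mitochondrial genes and 15 of 20 cytosolic genes had a log2 fold change below 0, as did 8137 of the 12227 tested genes, and after the scaling 15 and 12 did, as did 5980 of all tested genes. The signs of Aars1, Wars1, Tars1 and Mars2 were negative on the deposited TPM and positive after the scaling.

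The scaling also changed the calls. With it, 5 synthetases had a lower level by limma (among them Iars1, Mars1, Nars2 and Rars2), against 9.59% of all tested genes, and 2 had a higher one (Kars1 and Hars1), against 8.33%. The same genes were called by limma voom. The replicate numbers pair the libraries, which the main test does not use. With the replicate as a block 18 synthetases were lower, 11 mitochondrial and 7 cytosolic, against 29.0% of all genes. In that fit 1 was higher, against 6.89%. With the block and the scaling together 9 were lower, against 17.2% of all genes, and 5 were higher (Gars1, Hars1, Kars1, Lars2 and Rars1), against 16.4%.

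The calls depended on which libraries were kept. On the deposited TPM, no synthetase was called lower without cold-acclimated replicate 1 or without non-acclimated replicate 2, when 3.68% and 2.82% of all genes were, although 13 and 14 synthetases were lower at an unadjusted p under 0.05 in these limma fits, against 22.78% and 22.65% of all genes. Iars1 alone was called without cold-acclimated replicate 2, against 4.91% of all genes, and Iars1 and Nars2 without non-acclimated replicate 1, against 4.31%. Without non-acclimated replicate 3 the count was 9, when 15.1% of all genes were lower, and without cold-acclimated replicate 3 it was 20, or 10 in each compartment, when 24.5% of all genes were lower. Levels that did not overlap between the groups were lower at 26°C for 13 mitochondrial and 7 cytosolic genes, against 31.4% of all tested genes, and higher for 2 cytosolic genes, against 9.69%. After median of ratios scaling these counts were 8 mitochondrial and 5 cytosolic genes lower and 5 cytosolic genes higher, and of all tested genes 2483 were lower and 2510 higher.

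**Figure D1:**
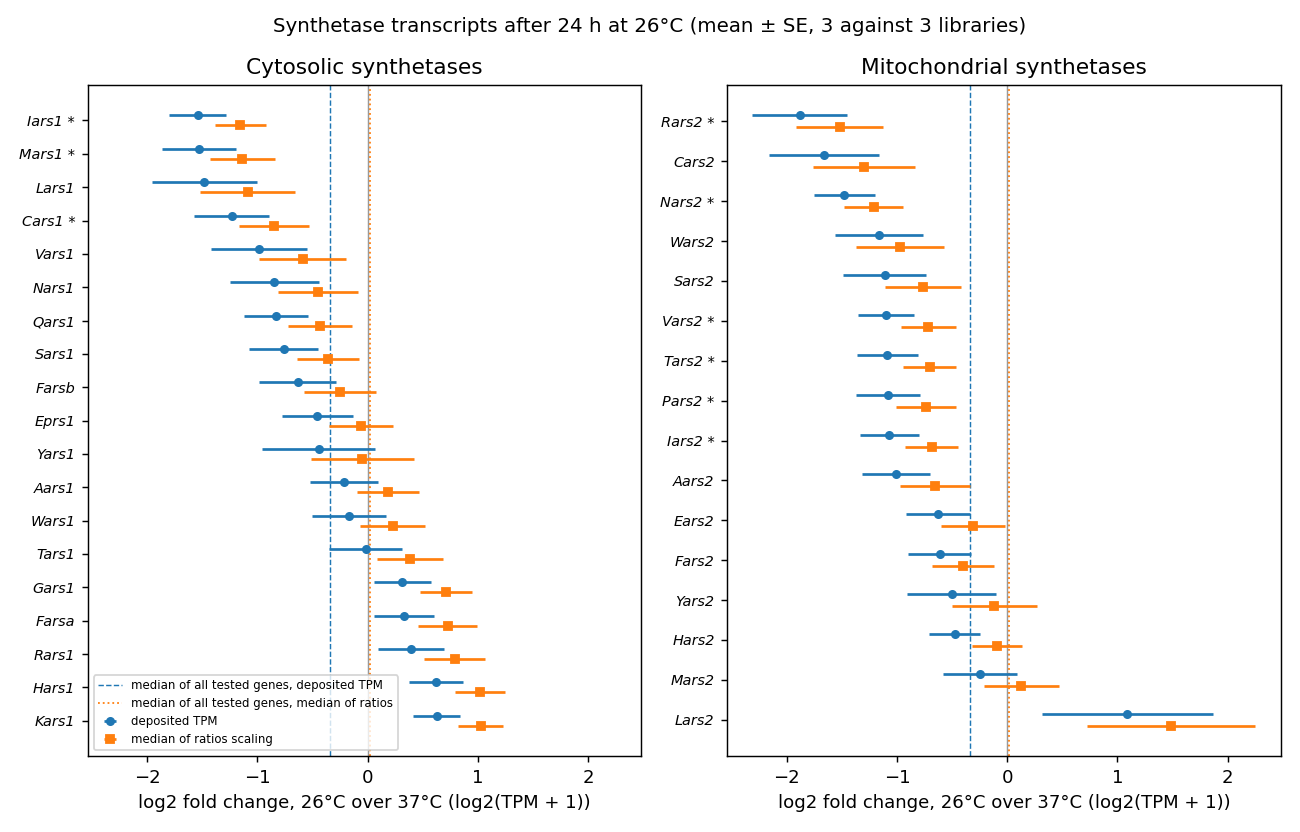
Log2 fold change of 35 synthetases at 26°C over 37°C on the log2(TPM + 1) scale, with bars of 1 SE from limma and 3 libraries in each group, on the deposited TPM (circles) and after median of ratios scaling (squares); asterisks mark an adjusted p under 0.05 on the deposited TPM. Vertical lines mark 0 and the median of all tested genes, at -0.34 and 0.02; Aars1, Wars1, Tars1 and Mars2 change sign with the scaling.

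Within the multisynthetase complex, 2 of 8 enzymes fell, against 16.0% of all tested genes, and the median log2 fold change lay 0.70 below that of all genes, at -1.04 on the deposited TPM. By replicate pair, 1 to 3, the distance from all genes was -0.96, -0.91 and -0.06, so that pair 3 was nearly level with them. Iars1, the cytosolic isoleucyl-tRNA synthetase (ENSMUSG00000037851, chr13:49835606-49887743, plus strand, GRCm39), was at 64.3, 65.1 and 75.0 TPM at 37°C and at 20.0, 18.7 and 31.1 TPM at 26°C. Every cold library lay below every warm one. The level fell by 1.54 ± 0.26 on the log2 scale (SE, n = 3 per group, limma adjusted p = 0.011), with adjusted p between 0.0032 and 0.053 when any 1 library was left out, and cold-acclimated replicate 1 and non-acclimated replicate 2 were the libraries without which it passed 0.05. It was lower in 3 of 3 replicate pairs.

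Mars1, the methionyl enzyme that also charges the initiator transfer RNA (ENSMUSG00000040354, chr10:127132090-127147655, minus strand), was at 110.4, 117.4 and 109.0 TPM at 37°C and at 29.5, 28.9 and 65.3 TPM at 26°C. The groups were apart, but cold-acclimated replicate 3 lay well above the other cold libraries. Its log2 fold change was -1.53 ± 0.34 (SE, n = 3 per group, limma adjusted p = 0.022). Leaving out 1 library gave adjusted p from 0.0026 to 0.085, and replicates 1 and 2 of either group were those without which the call was lost. The stress-response gene Ddit3 overlaps Mars1 on the opposite strand and was at 65.4, 29.1 and 25.0 TPM at 37°C and 54.3, 33.0 and 72.3 TPM at 26°C, and the strand setting of the counting was not given in the sources used here.

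Lars1, the leucyl enzyme, showed the same uneven cold group without passing the test. It was at 139.3, 153.9 and 155.6 TPM at 37°C and at 40.9, 29.7 and 120.2 TPM at 26°C, a gene added after its values had been seen. The groups did not overlap, and cold-acclimated replicate 3 stood nearest to the warm libraries. The log2 fold change was -1.48 ± 0.48 (SE, n = 3 per group, limma adjusted p = 0.063, with 0.023 under the block and 0.052 under the block and the scaling).

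Eprs1, which joins both glutamate and proline to their transfer RNAs, was at 194.0, 164.6 and 204.7 TPM at 37°C and at 123.7, 94.4 and 215.5 TPM at 26°C. The groups overlapped because cold-acclimated replicate 3 was the highest of the 6 libraries, and without it the adjusted p was 0.049. Rars1, the arginyl enzyme, was at 113.5, 156.6 and 232.6 TPM at 37°C and at 200.6, 194.1 and 241.1 TPM at 26°C, again with overlap, and was higher in each replicate pair. Their log2 fold changes were -0.46 (limma adjusted p = 0.35) and 0.39 (limma adjusted p = 0.38), and with the block and the scaling Rars1 had an adjusted p of 0.039. Qars1, the glutaminyl enzyme, had a log2 fold change of -0.83 and an adjusted p of 0.076 in limma, which was 0.041 with the block and 0.17 with the block and the scaling, where the log2 fold change was -0.43.

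Kars1, the lysyl enzyme, had like Rars1 a log2 fold change above 0, and its values and those of Hars1 are given although they were chosen after they had been seen. Kars1 was at 299.0, 389.7 and 351.6 TPM at 37°C and at 539.4, 530.2 and 526.3 TPM at 26°C. All cold libraries were above all warm ones and lay close together. The log2 fold change was 0.62 ± 0.21 (SE, n = 3 per group, limma adjusted p = 0.071), with adjusted p of 0.039 under the block and 0.021 after median of ratios scaling.

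Outside the complex, 1 of 12 cytosolic enzymes fell on the deposited TPM, against 16.0% of all tested genes, and the median log2 fold change of -0.33 was 0.01 above that of all genes, or -0.230, -0.345 and 0.273 relative to it in replicate pairs 1 to 3. Cars1, the cysteinyl enzyme (ENSMUSG00000010755, chr7:143110967-143153827, minus strand), was at 70.1, 54.6 and 40.3 TPM at 37°C and at 21.0, 15.7 and 33.1 TPM at 26°C. The groups did not overlap, although the lowest warm and the highest cold library, both replicate 3, were near each other. Its log2 fold change was -1.23 ± 0.34 (SE, n = 3 per group, limma adjusted p = 0.041), and after median of ratios scaling the adjusted p was 0.099. Adjusted p reached 0.13 when 1 library was left out, and the call was lost without replicate 1 or 2 of either group.

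Vars1 and Nars1, for valine and asparagine, followed Cars1 in size of change. Vars1 was at 127.8, 128.6 and 165.8 TPM at 37°C and at 51.0, 45.8 and 146.6 TPM at 26°C. Nars1 was at 300.4, 316.5 and 308.4 TPM at 37°C and at 135.2, 109.8 and 336.3 TPM at 26°C. In both genes cold-acclimated replicates 1 and 2 were below every warm library and replicate 3 was not, so the groups overlapped. The log2 fold changes were -0.98 (limma adjusted p = 0.14, or 0.038 with the block and 0.12 with the block and the scaling, where the log2 fold change was -0.59) and -0.85 (limma adjusted p = 0.17), and without cold-acclimated replicate 3 the adjusted p fell to 0.0055 and 0.0068.

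Tars1, the threonyl enzyme, was at 110.6, 124.4 and 208.4 TPM at 37°C and at 114.1, 122.8 and 197.8 TPM at 26°C, which was nearly the same in each replicate pair. Farsb, the beta subunit of the phenylalanyl enzyme and the cytosolic gene with the lowest mean, was at 25.9, 22.1 and 35.6 TPM at 37°C and at 17.58, 11.02 and 26.12 TPM at 26°C. Gars1, the glycyl enzyme and the cytosolic gene with the highest mean, was at 479.8, 472.6 and 507.5 TPM at 37°C and at 628.9, 451.3 and 779.1 TPM at 26°C. All 3 genes overlapped between the groups on the deposited TPM and had limma adjusted p of 0.98, 0.23 and 0.42. After median of ratios scaling Gars1 was higher in all cold libraries than in all warm ones. With the block and the scaling its limma adjusted p was 0.031.

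Hars1, for histidine, was at 111.4, 153.9 and 175.1 TPM at 37°C and at 227.1, 195.6 and 247.1 TPM at 26°C. Its groups did not overlap, and its log2 fold change of 0.62 ± 0.25 (SE, n = 3 per group) had a limma adjusted p of 0.11, or 0.026 after median of ratios scaling. Of the remaining cytosolic genes, Sars1 (serine), Yars1 (tyrosine), Aars1 (alanine), Wars1 (tryptophan) and Farsa (the alpha subunit for phenylalanine) had log2 fold changes between -0.76 and 0.33 and limma adjusted p of at least 0.12.

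The mitochondrial synthetases had lower levels than the cytosolic ones, with a median of 25.1 against 148.7 TPM at 37°C. Rars2, the mitochondrial arginyl enzyme (ENSMUSG00000028292, chr4:34614941-34660167, plus strand), was at 26.2, 29.8 and 29.9 TPM at 37°C and at 6.44, 3.56 and 14.2 TPM at 26°C. Nars2, for asparagine (ENSMUSG00000018995, chr7:96600698-96725606, plus strand), was at 3.72, 4.39 and 5.17 TPM at 37°C and at 0.974, 0.727 and 1.14 TPM at 26°C. Neither gene overlapped between the groups, and both were lower in 3 of 3 replicate pairs. The log2 fold changes were -1.88 ± 0.43 for Rars2 (SE, limma adjusted p = 0.023) and -1.48 ± 0.28 for Nars2 (SE, limma adjusted p = 0.015), and both calls held after the scaling.

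Leaving out single libraries moved the limma adjusted p of Rars2 between 0.0033 and 0.085 and that of Nars2 between 0.013 and 0.063. Rars2 was called only without cold-acclimated replicate 3, and the call of Nars2 was lost on leaving out the cold library of replicate 1 or 2, or the warm library of replicate 2. Rars2 overlaps Orc3, a gene of the origin recognition complex, on the opposite strand.

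Vars2, Tars2, Pars2 and Iars2, the mitochondrial enzymes for valine, threonine, proline and isoleucine, fell by similar amounts. Vars2 (ENSMUSG00000038838, chr17:35966526-35978531, minus strand) was at 36.6, 47.3 and 28.5 TPM at 37°C and at 16.97, 16.95 and 15.91 TPM at 26°C. Tars2 (ENSMUSG00000028107, chr3:95647286-95663677, minus strand) was at 41.0, 58.8 and 41.4 TPM at 37°C and at 18.4, 18.6 and 28.3 TPM at 26°C. In both genes all cold libraries were below all warm ones, and those of Vars2 were nearly equal. Pars2 (ENSMUSG00000043572, chr4:106508266-106512479, plus strand) was at 9.57, 9.48 and 14.6 TPM at 37°C and at 4.22, 3.99 and 5.98 TPM at 26°C. Iars2 (ENSMUSG00000026618, chr1:185018839-185061615, minus strand) was at 41.8, 43.8 and 36.5 TPM at 37°C and at 17.7, 14.6 and 25.6 TPM at 26°C. Again the groups did not overlap, and cold-acclimated replicate 3 was the highest cold library in Tars2, Pars2 and Iars2.

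The log2 fold changes of these 4 genes were -1.10 ± 0.25, -1.09 ± 0.28, -1.08 ± 0.29 and -1.07 ± 0.27 (SE, n = 3 per group), with limma adjusted p of 0.025, 0.032, 0.038 and 0.031. After median of ratios scaling they were between -0.73 and -0.68, and the adjusted p of 0.087, 0.081, 0.099 and 0.083 no longer passed in limma. With the block and the scaling together the limma adjusted p was 0.038 for Vars2 and 0.0465 for Pars2, and 0.058 and 0.061 for Tars2 and Iars2. Each call was also lost without replicate 1 or 2 of either group, with adjusted p up to 0.13, and that of Pars2 without non-acclimated replicate 3 as well.

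Cars2, the cysteinyl enzyme of the mitochondrion, was at 15.9, 27.7 and 31.9 TPM at 37°C and at 4.84, 4.12 and 15.9 TPM at 26°C. The groups just overlapped, as cold-acclimated replicate 3 reached the level of non-acclimated replicate 1. Its log2 fold change of -1.66 ± 0.50 (SE, n = 3 per group) had a limma adjusted p of 0.053, which was 0.012 with the replicate as a block and 0.025 with the block and the scaling. Mars2, which charges the methionine transfer RNA of the mitochondrion, was at 9.72, 14.9 and 22.8 TPM at 37°C and at 14.8, 12.5 and 10.4 TPM at 26°C. It was higher in the cold library of replicate 1 and lower in those of replicates 2 and 3, with a limma adjusted p of 0.64.

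Lars2, the mitochondrial leucyl enzyme, stood apart from the others in level and spread. It was at 217.3, 787.3 and 192.5 TPM at 37°C and at 232.9, 1534 and 894.8 TPM at 26°C. The libraries spanned a 7.97-fold range and the groups overlapped, with both replicates numbered 2 high, cold-acclimated replicate 3 high and non-acclimated replicate 3 low. The log2 fold change of 1.09 ± 0.78 (SE, n = 3 per group) had a limma adjusted p of 0.35, which was 0.061 with the block and 0.029 with the block and the scaling. Whether all reads counted for Lars2 came from its own transcript was not tested.

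Fars2, for phenylalanine, had the lowest mean of the mitochondrial genes. It was at 1.70, 1.62 and 1.90 TPM at 37°C and at 0.526, 0.816 and 1.07 TPM at 26°C, without overlap. Because of the added pseudocount of 1 its log2 fold change of -0.61 (limma adjusted p = 0.16) understates the change in TPM. Further mitochondrial genes were Wars2 (tryptophan), Sars2 (serine), Aars2 (alanine), Ears2 (glutamate), Yars2 (tyrosine) and Hars2 (histidine), with log2 fold changes between -1.17 and -0.48 and limma adjusted p between 0.057 and 0.41. With the replicate as a block, Wars2, Sars2 and Aars2 had limma adjusted p of 0.017, 0.026 and 0.020, and with the block and the scaling these were 0.031, 0.066 and 0.077.

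**Figure D2:**
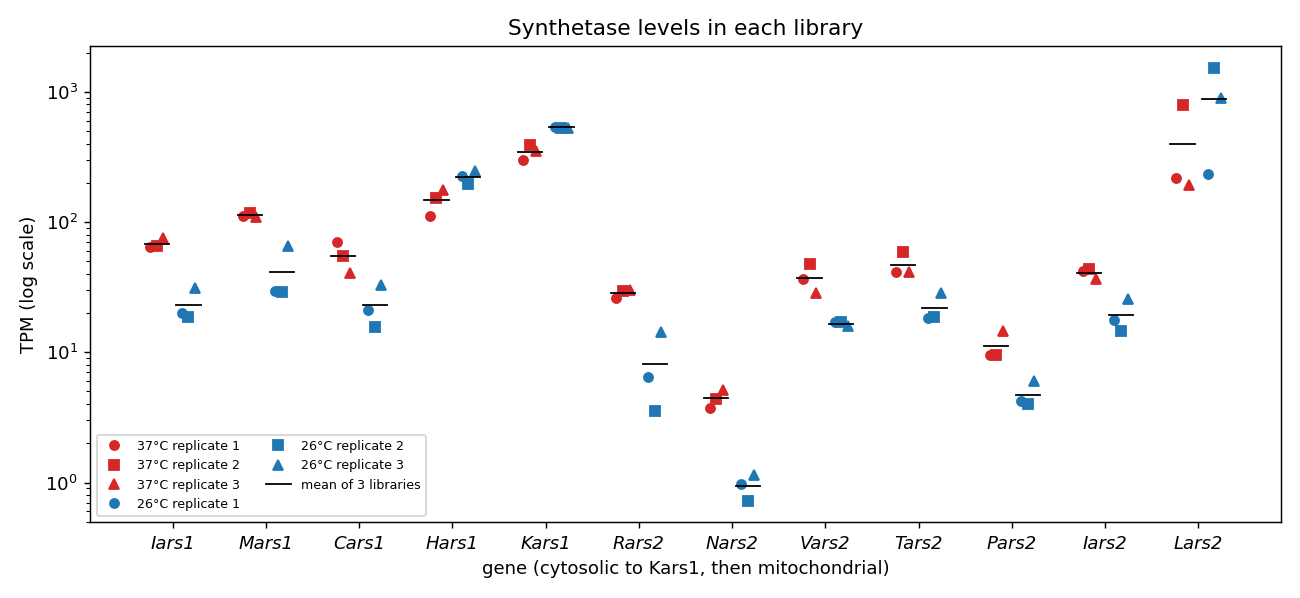
TPM on a log axis of 12 synthetases in each of the 6 libraries, with the mean of 3 libraries as a line; red is 37°C, blue is 26°C and the symbol gives the replicate. Rars2 in the cold-acclimated replicates lies at 6.44, 3.56 and 14.2 TPM, below all its warm libraries, and Lars2 spans 192.5 to 1534 TPM.

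Summed over the 20 cytosolic genes, the level was 3195, 3327 and 3619 TPM at 37°C and 2834, 2437 and 4083 TPM at 26°C. The sum was lower in cold-acclimated replicates 1 and 2 and higher in replicate 3. The mitochondrial sum was 503.1, 1160 and 566.9 TPM at 37°C and 379.8, 1671 and 1091 TPM at 26°C, most of it from Lars2 in several libraries. Without Lars2, an alternative chosen after seeing the data, it was 285.8, 372.6 and 374.4 TPM at 37°C (344.3 ± 50.6, SD, n = 3) and 146.9, 136.2 and 196.6 TPM at 26°C (159.9 ± 32.2, SD, n = 3). These groups did not overlap, and the sums were not tested.

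A ratio of a cytosolic to a mitochondrial enzyme for the same amino acid does not depend on the scaling between libraries when it is taken from the TPM, whereas a difference of log2(TPM + 1) does, and narrows the change for genes as low as Wars2 and Nars2. There were 14 such pairs, leaving out phenylalanine, glutamate and proline, whose genes do not match singly. The cytosolic gene had the higher TPM in every library for 13 pairs, the exception being leucine. The mean log2 ratio of the TPM, taken without a pseudocount after the data had been seen, was higher at 26°C for 11 pairs and lower for 3, and it did not overlap between the groups for 6 higher and 2 lower pairs. The counts were the same with log2(TPM + 1). No such counts were made over pairs of other genes, so whether these 14 pairs stand out was not tested.

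For arginine, Rars1 over Rars2 was 4.33, 5.26 and 7.77 at 37°C and 31.17, 54.51 and 16.97 at 26°C. The pairs for histidine, threonine, tryptophan and asparagine also had higher ratios in all cold libraries. The tryptophan ratio is imprecise, as Wars2 was at 0.409, 0.0949 and 1.38 TPM at 26°C, with as few as 7 recovered reads in a library. Leucine went the other way, with Lars1 over Lars2 at 0.641, 0.196 and 0.808 at 37°C and 0.176, 0.0194 and 0.134 at 26°C. Isoleucine was the other pair with lower ratios throughout, at 1.54, 1.49 and 2.06 at 37°C and 1.13, 1.27 and 1.22 at 26°C.

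Promoter windows from 250 bases before to 50 bases after the start, from RefSeq on GRCm38.p6, matched 27 of the 37 genes, 13 cytosolic and 14 mitochondrial. They were searched on both strands for TGATGNAA, letters bound by ATF4 with a C/EBP partner, and for CACGTG, the E-box. TGATGNAA was present for 5 of the 13 cytosolic and 0 of the 14 mitochondrial genes, against 4.51% of all genes in the table. CACGTG was present for 4 cytosolic genes (Aars1, Farsb, Iars1 and Tars1) and 1 mitochondrial gene (Ears2), against 8.09%. A stretch of 30 bases around a TGATGNAA match is shown for each of these 5 genes because all of them were cytosolic, with the matched letters, or their reverse complement, in capitals.
Aars1, chr8:111033840-111033869, plus strand: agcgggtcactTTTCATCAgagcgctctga
Gars1, chr6:55037960-55037989, plus strand: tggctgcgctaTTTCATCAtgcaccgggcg
Iars1, chr13:49682126-49682155, plus strand: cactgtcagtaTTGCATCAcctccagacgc
Tars1, chr15:11399655-11399684, minus strand: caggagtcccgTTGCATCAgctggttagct
Yars1, chr4:129189895-129189924, plus strand: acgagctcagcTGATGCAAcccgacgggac
These genes did not share a direction, since Iars1 fell while Aars1, Gars1, Tars1 and Yars1 had log2 fold changes between -0.44 and 0.31 on the deposited TPM, and a match of letters does not show that a factor was bound.

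The synthetase genes lay on 15 chromosomes, with 6 on chromosome 1 and 4 each on chromosomes 7, 8 and 18, and all 37 overlapped the GENCODE gene of the same identifier on GRCm39. Hars1 and Hars2 are transcribed away from each other on chromosome 18 with overlapping ends, and had log2 fold changes of 0.62 and -0.48. Eprs1 and Iars2 lie 31999 bases apart on chromosome 1, on opposite strands. In all, 16 members overlap another listed gene and 9 overlap a protein-coding one, so part of their reads could belong to the neighbour.

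Genes that work alongside the synthetases were described from lists. The 3 scaffold proteins of the multisynthetase complex had a median log2 fold change of 0.25, which was 0.59 above that of all genes. In replicate pairs 1 to 3 the difference from all genes was 1.03, 0.53 and -0.04, and 2 of the 3 genes were below 0 in pair 3. None passed the test by limma, by an unadjusted p under 0.05 or by voom. Aimp1, a scaffold and tRNA-binding subunit, was at 170.3, 174.5 and 132.2 TPM at 37°C and at 191.3, 186.5 and 186.8 TPM at 26°C, with a limma adjusted p of 0.43 (0.031 with the block and the scaling).

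Among 13 related genes, such as the proofreading enzymes and the genes of selenocysteine and glutamine transfer RNA formation, 0 passed limma in either direction, against 2.63% of all genes upward and 16.0% downward, while 1 was higher and 2 were lower at an unadjusted p under 0.05, against 7.753% and 29.97%, and voom called 1 as higher, against 7.72%. Gatb, a subunit of the mitochondrial glutamyl-tRNA amidotransferase, had the smallest p, with 9.05, 10.6 and 13.4 TPM at 37°C and 4.51, 3.62 and 7.06 TPM at 26°C (limma adjusted p = 0.054, or 0.021 with the block and 0.063 with the block and the scaling). The groups were apart. Qrsl1, another subunit, named after its values had been seen, had nearly the same p in the opposite direction, with 14.2, 14.1 and 16.5 TPM at 37°C and 31.7, 20.6 and 33.3 TPM at 26°C. Its limma adjusted p was 0.028 with the block and 0.021 after median of ratios scaling.

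Of 6 genes listed for the delivery of charged transfer RNA to the ribosome, 1 fell, against 16.0% of all tested genes. With the replicate as a block 2 were lower, against 29.0%. Tufm, the mitochondrial elongation factor Tu, was at 94.9, 142.5 and 150.1 TPM at 37°C and at 20.7, 21.4 and 73.2 TPM at 26°C, with cold-acclimated replicate 3 again between the other cold libraries and the warm ones. Its log2 fold change was -1.95 (limma adjusted p = 0.032, up to 0.11 with a library left out).

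Among the 16 mitochondrial translation factors 5 fell and 0 rose, against 16.0% and 2.63% of all tested genes. At an unadjusted p under 0.05, 10 were lower and 0 higher, against 29.97% and 7.753%. Voom called 3 as lower and 0 as higher, against 9.64% and 7.72% of all genes, and 10 were lower with the replicate as a block, against 29.0%. With the block and the scaling 5 were lower and 1 was higher, against 17.2% and 16.4%. Tufm is on this list too and is among the 5 that fell. Their median lay 0.48 below that of all genes. Taco1, the activator of translation of a respiratory chain subunit, was at 19.5, 30.6 and 31.5 TPM at 37°C and at 1.77, 1.22 and 5.95 TPM at 26°C. Mtrfr, a mitochondrial release factor of stalled ribosomes, was at 11.7, 9.89 and 7.13 TPM at 37°C and at 0.442, 0.116 and 1.94 TPM at 26°C. Both genes were lower in every cold library than in every warm one, with log2 fold changes of -2.98 and -2.63 (limma adjusted p = 0.0090 and 0.0094).

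Transfer RNA processing and modification did not move in a single direction. Of 26 tested processing genes, 1 rose and 1 fell by both thresholds, and of 69 tested modification genes, 3 rose and 11 fell, against 2.63% and 16.0% of all genes. By median of ratios scaling the adjusted p passed for 12 modification genes in the upward and 8 in the downward direction, against 8.33% and 9.59% of all genes. With the replicate as a block the adjusted p passed for 8 modification genes upward and 18 downward, against 6.89% and 29.0%, and with the block and the scaling for 15 and 9, against 16.4% and 17.2%. Of the processing genes, 3 were higher and 4 lower with the block, and 4 and 1 with the block and the scaling. Rpp38, a protein of ribonuclease P, was at 23.6, 23.6 and 19.1 TPM at 37°C and at 46.7, 64.2 and 35.4 TPM at 26°C. The groups did not overlap, with a log2 fold change of 1.07 (limma adjusted p = 0.034, up to 0.11 with a library left out). Tsen34, a subunit of the transfer RNA splicing endonuclease, had a log2 fold change of -0.99 (limma adjusted p = 0.045, 0.14 after the scaling and up to 0.16 with a library left out).

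Yrdc, which takes part in forming the threonylcarbamoyl adenosine of transfer RNA, was at 56.8, 74.2 and 109.0 TPM at 37°C and at 327.6, 262.6 and 325.2 TPM at 26°C. Trmt6, a subunit of a transfer RNA adenosine methyltransferase, was at 33.4, 48.5 and 41.0 TPM at 37°C and at 159.3, 126.7 and 106.4 TPM at 26°C. Each was higher in all cold libraries, with log2 fold changes of 1.96 and 1.65 (limma adjusted p = 0.0080 and 0.0090). Mettl8, a mitochondrial transfer RNA methyltransferase, and Elp3, the catalytic subunit of Elongator, went the opposite way, with log2 fold changes of -2.15 and -1.64 (limma adjusted p = 0.0084 and 0.0096, the value for Elp3 being up to 0.053 with a library left out).

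The ATF4 amino acid response list, which holds sensors upstream of ATF4 (Eif2ak4 and Gcn1), the factor with others of its kind, and genes it can induce, had 27 tested genes. Of these 2 fell and 0 rose, against 16.0% and 2.63% of all genes, while 4 were lower and 1 was higher at an unadjusted p under 0.05, against 29.97% and 7.753%. Voom called 2 as higher and 1 as lower, against 7.72% and 9.64%. With the replicate as a block 7 were lower and 1 was higher, against 29.0% and 6.89% of all genes, and with the block and the scaling 1 was lower and 8 were higher, against 17.2% and 16.4%. Cebpg, a partner of ATF4, was at 52.0, 55.0 and 34.2 TPM at 37°C and at 2.43, 2.72 and 3.86 TPM at 26°C, far below in all cold libraries. Mthfd2, a mitochondrial folate enzyme, was at 325.7, 294.1 and 213.7 TPM at 37°C and at 103.2, 102.4 and 170.0 TPM at 26°C, also without overlap. Their log2 fold changes were -3.57 and -1.16 (limma adjusted p = 0.0067 and 0.031). For Mthfd2 the limma adjusted p was 0.082 on values scaled by median of ratios and up to 0.12 with a library left out.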

How the data were processed

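The TPM values were used as deposited by the authors. The labels describe poly(A) selection and directional libraries, and the submitters' processing notes name FastQC 0.11.7, Trimmomatic 0.38, HISAT2 2.1.0, featureCounts 1.6.3 and the mouse build GRCm39. The annotation release, the strand setting and the way in which reads became TPM were not given in the sources used here.

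Genes with a mean of at least 1 TPM over the 6 libraries (12227) were tested on log2(TPM + 1) with limma 3.58.1 in R 4.3.3, with a mean-variance trend, no replicate term and Benjamini-Hochberg adjustment over all of them. Fold changes are on the log2(TPM + 1) scale. Calls required an adjusted p under 0.05, and by the stricter rule also a log2 fold change of 1 or more either way. Python 3.11.15 with numpy 2.4.6, pandas 2.3.3 and matplotlib 3.10.9 gave the remaining values and the plots.

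The TPM of a gene are whole multiples of a step, which was used to recover its reads. For 21195 genes 100% came out whole within 1e-06 reads, and their totals are the depths given. For 901 genes a common factor was applied, and a factor shared by all counts of a gene cannot be seen. These reads entered limma voom as an alternative.

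Whether equal replicate numbers pair the libraries was checked over the tested genes, by subtracting each group's mean from its libraries. The remainders correlated with r = 0.48, 0.50 and 0.51 for equal numbers and between -0.41 and 0.02 for unequal ones, so the libraries are paired by number. Extraction batches called old and new are mentioned in the labels but not assigned to libraries, so the p-values measure the spread between these libraries.

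Median of ratios factors were computed over the tested genes. A version over all genes above 0 in every library was run first, and the version over the tested genes was kept after both results had been seen, to follow an earlier account of these data.

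The members and the gene lists were chosen with earlier results of these data known. Values in all libraries were to be given for members with an adjusted p under 0.05, the enzyme of the other compartment for the same amino acid and the highest and lowest member of each compartment. From each list, up to 2 members per direction with the smallest p among those with an adjusted p under 0.05 were named, otherwise the 1 with the smallest p. Of 217 list entries, 216 matched by symbol and 1 by an alias. A planned comparison of protein sequences was not made. Some items counted in the totals are not reported here by name.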

Additional observations from a re-analysis of the deposited data

How the results depend on the processing

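The cause of the changes below was not tested. Calls use both thresholds unless an adjusted p alone is named. Of all genes, 321 were upregulated and 1954 downregulated on the deposited TPM, 802 and 1075 with median of ratios scaling, 840 and 1052 with that scaling over all genes above 0 in every library (chosen after seeing the data), 767 and 1122 by voom, 731 and 765 with quantile normalization, 184 and 1121 without a filter on low values, 458 and 2679 with the replicate block, and 1086 and 1544 with the block and the scaling. Leaving out 1 library gave 59 to 459 upregulated and 345 to 2725 downregulated genes.

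Of the cytosolic genes, 2 were upregulated with either median of ratios version, by voom and with the replicate block and the scaling, against 0. With the adjusted p alone the count was likewise 2, except for 4 with the replicate block and the scaling, and it was 1 with the replicate block. The 3 cytosolic genes downregulated became 1 without a filter and 5 with the replicate block (7 by adjusted p alone), and 0 to 9 with a library left out (0 to 10 by adjusted p alone). They were 2 with quantile normalization, with either median of ratios version, by voom and with the block and the scaling. The 7 mitochondrial genes downregulated became 3 with either median of ratios version, by voom and without a filter, 1 with quantile normalization, 11 with the replicate block and 4 with the block and the scaling (7 by adjusted p alone), and 0 to 10 with a library left out. With the block and the scaling 1 mitochondrial gene, Lars2, was upregulated, against 0.

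The median of the mitochondrial genes relative to all genes stayed negative in every alternative, at -1.01 without a filter, -0.52 with quantile normalization and between -0.84 and -0.60 with a library left out. That of the cytosolic genes was -0.48 without a filter and -0.42 with quantile normalization. It reversed to 0.05 without cold-acclimated replicate 2 and reached -0.49 without cold-acclimated replicate 3.

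For single synthetases named with their values in all libraries, 267 tests under an alternative stayed on the same side of the threshold, 70 lost a call and 21 gained one, and none reversed a called direction. The replicate block changed no call of the named genes beyond those given with their values. Depth limits the lowest genes most, as Wars2 had as few as 7 recovered reads in a library.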

Other observations

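The table also lists transfer RNA genes, which poly(A) selection captures poorly. Of 400 nuclear transfer RNA genes, 374 were at 0 in all libraries and 3 had a mean of at least 1 TPM, and their sum was 20.1, 20.1 and 29.4 TPM at 37°C and 17.2, 15.2 and 8.11 TPM at 26°C. Of 22 mitochondrial transfer RNA genes, 9 had a mean of at least 1 TPM, and their sum was 968.3, 1594 and 1415 TPM at 37°C and 1093, 4837 and 2412 TPM at 26°C. Cold-acclimated replicate 2 had the highest mitochondrial sum and also the highest Lars2 level. The lowest Lars2 level, 192.5 TPM, was in non-acclimated replicate 3, whereas the lowest mitochondrial sum was in non-acclimated replicate 1. A link between the sum and Lars2 was not tested.

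Gene Ontology component terms in the table placed all 17 genes with the suffix 2, and 7 of the 20 others (Gars1, Kars1, Mars1, Nars1, Rars1, Sars1 and Vars1), in the mitochondrion. By these terms, whose evidence was not examined, the suffix does not give the only site of each product.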
